A study of Homo sapiens with 12 samples.

Results

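TD5 and WB1 are 2 clones of TPC1, a human line derived from papillary thyroid cancer, and both carry the genotype DICER (+/-), with an intact copy of DICER1 beside an edited copy. The edited copy has lost 185 nucleotides in TD5 and 7 nucleotides in WB1. The comparison of these clones was made from the columns named TD5 and WB1 in the expression table, which give 3 libraries of each clone and 6 of the 12 libraries of the series. The other 6 libraries are 3 of TPC1 itself, with wild-type DICER1, and 3 of a further DICER (+/-) clone, D11, and they entered the estimate of the spread and are given as values beside those of the 2 clones. All 4 lines grew in RPMI medium with fetal bovine serum, and RNA was sequenced from libraries of polyadenylated RNA. Both clones went through the same steps, a transient transfection of a CRISPR/Cas9 plasmid with Lipofectamine, a sort for the fluorescence of the plasmid and growth from a single cell. Each clone therefore stands for 1 founder cell, and the size of the deletion and any other property of that founder cannot be told apart in this comparison.

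DICER1 is the RNase III enzyme that cuts hairpin precursors into mature microRNAs, which Argonaute proteins then bind. Loaded Argonaute pairs the seed of the microRNA with messenger RNAs and represses them, so a cell with less DICER1 can have less of many microRNAs at once. In the thyroid, microRNA processing is needed to keep follicular cells differentiated, and inherited or acquired DICER1 variants occur in thyroid tumors. The sequence that sets the 2 clones apart lies where the guide RNA cut. The guide is printed with its PAM, the bases that Cas9 needs beside the target, in capitals, and the reference sequence around the site is printed in the direction of the gene with the bases paired by the guide in capitals.

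Guide: gccgtgttgattgtgactcgTGG
Reference: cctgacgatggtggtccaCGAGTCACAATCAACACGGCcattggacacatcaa

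The guide lies on the plus strand of GRCh38 at chr14:95115685-95115707, antisense to DICER1 (ENSG00000100697, chr14:95086228-95158010, minus strand), and the printed reference stretch is chr14:95115670-95115722. Cas9 cuts between bases 95115701 and 95115702, within exon 11 of the 27 exons of transcript ENST00000343455.8. This exon is coding and spans 155 bases, chr14:95115667-95115821, so the deletion of 185 nucleotides in TD5 is longer than the exon, and that of 7 nucleotides in WB1 is not. The exact ends of the deletions were not used here.

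DICER1 transcripts were lower in TD5 than in WB1. Values are reads per gene scaled to 20000000 aligned reads per library, called scaled reads below. DICER1 was at 643, 627 and 809 scaled reads in the TD5 libraries and at 881, 939 and 815 in the WB1 libraries. The groups did not overlap, although the highest TD5 library and the lowest WB1 library lay close together. The mean was 693 ± 101 (SD, n = 3) in TD5 and 878 ± 62.0 (SD, n = 3) in WB1, which put TD5 at 78.9% of WB1. In TPC1 it was at 1360, 1129 and 1101, and in D11 at 977, 1051 and 1093, so that both clones lay below the parental line. The log2 fold change of TD5 against WB1 was -0.34 (SE 0.10, 95% interval -0.55 to -0.13), with an adjusted p of 0.0307 by limma, and the exact two-sided permutation test over the 6 libraries gave p = 0.1, the smallest that 3 against 3 allows. The adjusted p was above 0.05 without TD5 replicate 1 (log2 fold change -0.29), TD5 replicate 2 (-0.27), WB1 replicate 1 (-0.34) or WB1 replicate 2 (-0.29), and once every library had been corrected for the GC content of its genes, the log2 fold change was -0.17 (adjusted p = 0.0903 by limma). In bulk RNA, fewer cells with a transcript and less transcript per cell cannot be told apart.

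The libraries of the 2 clones rested on an estimated 12700000 to 17326000 reads, with 12700000 to 15900000 in TD5 and 16462000 to 17326000 in WB1. A count of 3 reads corresponds to between 3.46 and 4.72 scaled reads, which is taken as the floor of detection and covers counting error only. Markers of the labelled tissue were partly present. PAX8, a transcription factor of thyroid follicular cells, was at 9753, 9387 and 8950 scaled reads in TD5 and at 8397, 9715 and 9879 in WB1, with overlapping groups. FOXE1 and HHEX were also detected in every library, whereas NKX2-1 and TSHR were at 0 in all 6 libraries and TG, the precursor of thyroid hormone, was at 11 to 27. The 3 C cell markers summed to at most 6 scaled reads, and the 4 endothelial markers to at most 7. Of the 6 immune markers, CD68 made up nearly all of the signal, and PTPRC was at 0 to 2. The 6 fibroblast markers summed to 187 to 221 in TD5 and to 236 to 355 in WB1, but DCN was at 0 and COL1A2 at 0 to 2 in these libraries, and the list includes LUM and PDGFRB, which are described below and moved in opposite directions.

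Of 58302 genes in the table, 16027 had at least 1 per 1000000 in at least 3 of the 12 libraries and were tested. A gene was called when its adjusted p was under 0.05 and its change at least 1.5-fold. In all, 373 genes were called, which is 2.33% of those tested. TD5 had fewer genes above WB1 than below it, with 98 called higher (0.611%) and 275 called lower (1.72%). Most of the transcriptome was alike in level, since 97.6% of tested genes lay within 1.5-fold and the median log2 fold change was -0.05. Changes of at least 2-fold were called for 21 genes higher and 55 lower in TD5, and changes of at least 4-fold for 3 and 7. The 3 TD5 libraries did not overlap with the 3 WB1 libraries for 363 of the called genes, against 28.9% of all tested genes. The number called lower varied with single libraries. Without TD5 replicate 3, 429 genes were called lower and 105 higher, and without TD5 replicate 2, 223 lower and 87 higher. Without a minimum fold change, 725 genes were higher and 1461 lower at an adjusted p under 0.05. Of 12540 protein-coding genes 2.31% were called, 87 higher and 203 lower, and of 2367 long noncoding RNA genes 2.11%, 8 higher and 42 lower. The difference in this split was not tested.

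**Figure D1:**
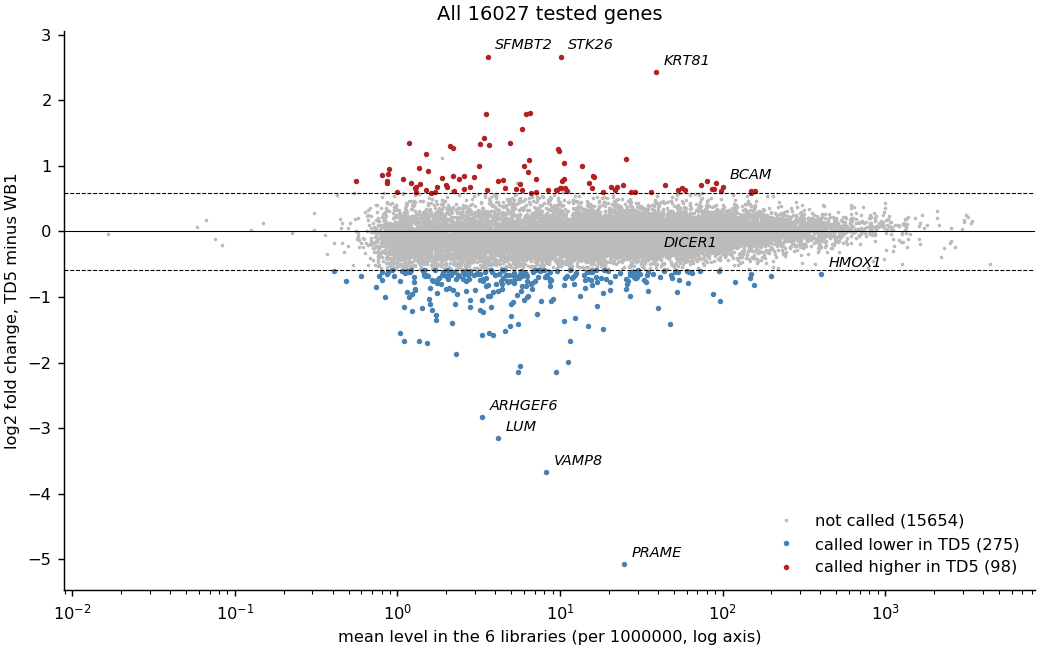
Log2 fold change of TD5 against WB1 (y axis) for the 16027 tested genes by their mean level in the 6 libraries (x axis, per 1000000, log scale), with a point per gene. Blue points are the 275 genes called lower and red points the 98 called higher, dashed lines mark 1.5-fold, and PRAME, VAMP8 and LUM lie farthest below while STK26, SFMBT2 and KRT81 lie farthest above.

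The balance of calls moved with base composition. Among deciles of GC content of their transcripts, the genes with the lowest GC content (median 36.7%) had a median log2 fold change of -0.17, and those with the highest (median 63.8%) one of 0.13. In the lowest decile 48 genes were called lower and 2 higher, and in the highest decile 6 were called lower and 26 higher. The share of calls that were lower in TD5 was 73.7%, and it was 64.3% after each library was corrected for GC content (189 lower, 105 higher), 58.0% after a correction for transcript length (189 lower, 137 higher) and 62.6% with median-of-ratios scaling (218 lower, 130 higher). The part of GC content in single results was not tested. Values after its correction are given beside genes named by the rule in the closing sections whose call it ended. Calls of genes picked beyond that rule are given without such values and may not have outlasted the correction.

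The largest differences were in genes lower in TD5 than in WB1. PRAME (ENSG00000185686, chr22:22547701-22559361), a tumor antigen that is silent in most adult tissues, was at 5, 9 and 16 scaled reads in TD5 and at 921, 1017 and 1012 in WB1. It had the largest change of all called genes, with a log2 fold change of -5.08 (SE 0.12, adjusted p = 2.57e-14 by limma). TPC1, with a mean of 57.7, lay between the clones and nearer to TD5. VAMP8 (ENSG00000118640, chr2:85561562-85582031), a SNARE protein of endosomes and autophagosomes, was at 5, 3 and 13 in TD5 and at 344, 281 and 341 in WB1. Its log2 fold change was -3.67 (SE 0.13, adjusted p = 9.86e-12). The values of VAMP8 in TPC1 had a mean of 267, near that of WB1 at 322. Genes at the floor in a clone were then searched, leaving out loci with a clone-based name, such as AC names. In 3 genes every WB1 library was at 2 per 1000000 or more and every TD5 library at the floor of 3 reads. LUM (ENSG00000139329, chr12:91102629-91111494), which encodes the matrix proteoglycan lumican, was at 2, 0 and 0 in TD5 and at 138, 212 and 148 in WB1, at least 39.2-fold lower against the mean floor of the TD5 libraries. ARHGEF6 (ENSG00000129675, chrX:136665547-136780932), an exchange factor for Rac and Cdc42, was at 0, 0 and 3 in TD5 and at 102, 120 and 175 in WB1, at least 31.2-fold lower. SLC16A14, a member of the monocarboxylate transporter family, was at 2, 2 and 4 in TD5 and at 57, 54 and 45 in WB1, at least 12.3-fold lower. The reverse, the floor in every WB1 library and at least 2 per 1000000 in every TD5 library, was met by no gene searched. Genes of lower level, among them PNMA2 below, were not covered by this rule.

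Further genes were among the 10 lowest in TD5. NOV, now called CCN3, a matricellular signaling protein, was at 43, 50 and 82 in TD5 and at 387, 298 and 279 in WB1, a log2 fold change of -2.14 (SE 0.16, adjusted p = 2.19e-07 by limma). TLR4, the receptor for bacterial lipopolysaccharide, was at 19, 29 and 38 against 199, 201 and 176, and its log2 fold change was -2.14 (SE 0.14, adjusted p = 3e-08). SLAMF7, a surface receptor best known from lymphoid cells, was at 70, 74 and 90 against 402, 330 and 375. DTX3, an E3 ubiquitin ligase of the Deltex family, was at 29, 30 and 36 against 197, 205 and 183. All 4 had WB1 libraries far above every TD5 library. The adhesion receptor ADGRL2 was at 117, 79 and 104 in TD5 and at 364, 348 and 368 in WB1, and the protocadherin PCDH9 at 29, 27 and 14 against 119, 106 and 101. Their log2 fold changes were -1.68 for ADGRL2 (adjusted p = 3.84e-07 by limma) and -1.59 for PCDH9 (adjusted p = 7.91e-07). In TPC1, TLR4 had a mean of 164 and DTX3 one of 186, near WB1, whereas SLAMF7 had a mean of 72.7, near TD5.

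**Figure D2:**
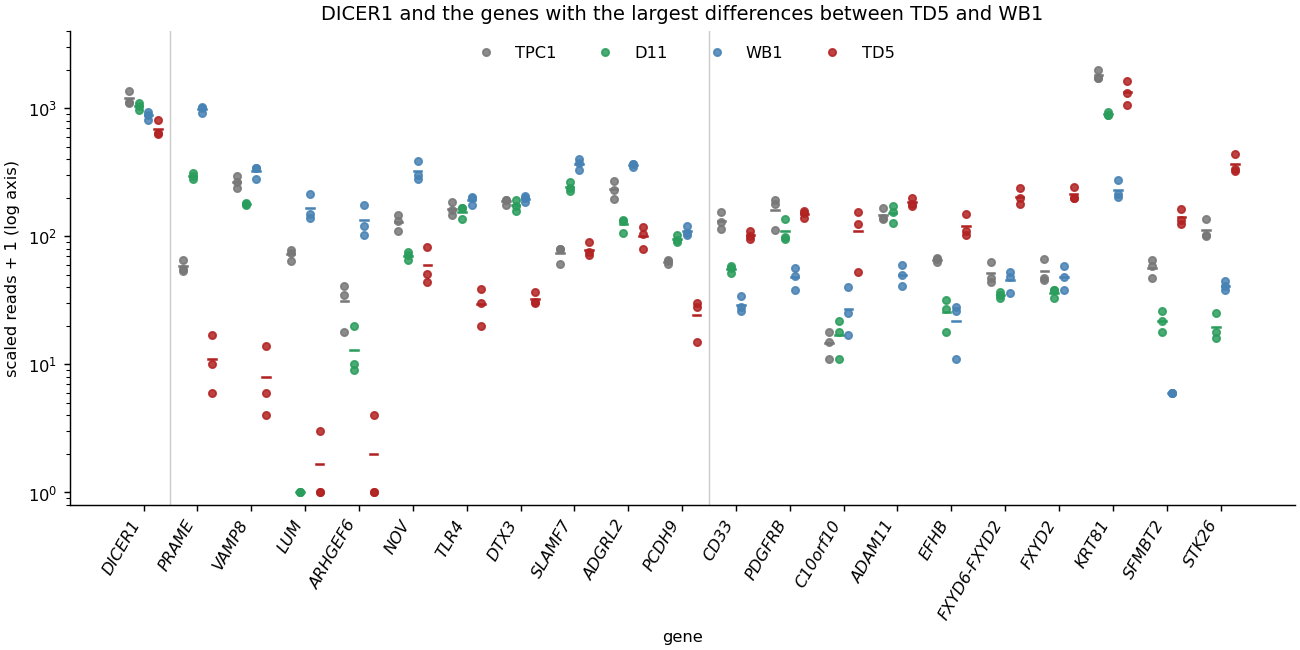
Scaled reads plus 1 (y axis, log scale) of DICER1 and of the 10 lowest and 10 highest called genes in each library of TPC1 (grey), D11 (green), WB1 (blue) and TD5 (red), with points for libraries and short lines for the means of 3 libraries. Apart from DICER1, where the red and blue points lie close together, the red points lie well below the blue ones from PRAME to PCDH9 and above them from CD33 to STK26.

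Genes higher in TD5 than in WB1 were fewer, and their largest differences were smaller. For some of them, such as KRT81, CD33 and PDGFRB, TD5 did not lie above TPC1. STK26 (ENSG00000134602, chrX:132023302-132075943), a kinase of the germinal center family that acts with the Golgi and the cytoskeleton, was at 338, 322 and 438 scaled reads in TD5 and at 40, 44 and 37 in WB1. Its log2 fold change was 2.67 (SE 0.14, adjusted p = 1.47e-09 by limma). SFMBT2 (ENSG00000198879, chr10:7158624-7411488), a Polycomb group protein, was at 123, 133 and 163 in TD5 and at 5 in each WB1 library, just above the floor, with a log2 fold change of 2.67 (SE 0.13, adjusted p = 1.15e-09). KRT81 (ENSG00000205426, chr12:52285913-52291534), a hair keratin also expressed by carcinoma cells, was at 1306, 1641 and 1066 in TD5 and at 203, 274 and 212 in WB1. It changed by 2.43 (SE 0.13, adjusted p = 1.23e-09), and TPC1, with a mean of 1815, lay on the side of TD5. FXYD2, the gamma subunit of the sodium pump, was at 243, 200 and 199 in TD5 and at 37, 47 and 58 in WB1, and it shares its bases with the readthrough gene FXYD6-FXYD2, which had nearly the same values, so reads of these genes cannot be assigned with certainty. PDGFRB, a receptor tyrosine kinase of mesenchymal cells, was at 152, 158 and 139 in TD5 and at 37, 56 and 48 in WB1. CD33, a sialic acid binding receptor of myeloid cells, was at 109, 95 and 100 against 27, 33 and 25. C10orf10, also called DEPP1, a target of FOXO factors, was at 153, 52 and 125 in TD5 and at 24, 16 and 39 in WB1, with the widest spread among the 10 highest genes and an SE of 0.25 around its log2 fold change of 1.42 (adjusted p = 0.00162 by limma). ADAM11, a disintegrin without protease activity, changed by 1.56 and EFHB, an EF-hand protein, by 1.79, and in each case all TD5 libraries lay above all WB1 libraries.

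Of the abundant transcripts (100 per 1000000 or more), the rule in the closing sections took 6 called lower and 3 called higher in TD5. The 3 higher are not all such calls, and the 6 lower may not be. BNIP3, given below, was called higher at 120 per 1000000 in WB1 and 180 in TD5, but its groups overlapped. The nuclear long noncoding RNA NEAT1, the scaffold of paraspeckles, was at 2065, 2175 and 2527 in TD5 and at 4214, 4314 and 3426 in WB1. Its log2 fold change was -0.81 (SE 0.10, adjusted p = 9.87e-05 by limma), and it was -0.55, below 1.5-fold, after the correction for transcript length. The entries NEAT1_1, NEAT1_2 and NEAT1_3 overlap NEAT1 on the same strand and are counted apart. EVC, a ciliary protein of Hedgehog signaling, was at 2459, 2016 and 2262 against 3481, 3636 and 3963, a log2 fold change of -0.72. HMOX1, which encodes the heme-degrading enzyme heme oxygenase 1, was at 5637, 6140 and 7096 against 11258, 8680 and 9799, a log2 fold change of -0.65. The call of HMOX1 ended without TD5 replicate 1 (-0.58) or WB1 replicate 1 (-0.56), which brought it below 1.5-fold. In the other direction, BCAM, a laminin receptor, was at 2379, 2440 and 2609 in TD5 and at 1473, 1421 and 1715 in WB1, with a log2 fold change of 0.69 (SE 0.08, adjusted p = 1.87e-05 by limma) that became 0.57, below 1.5-fold, after the GC correction. TINAGL1, a matricellular protein, changed by 0.62 and FAM20C, the kinase that phosphorylates secreted proteins, by 0.62. Of these 3 higher calls, TINAGL1 and FAM20C were the least stable. After the GC correction TINAGL1 was at 0.56 and FAM20C at 0.47. TINAGL1 was at 0.50 without TD5 replicate 2 and 0.44 without WB1 replicate 1, and FAM20C at 0.54 without TD5 replicate 1 and 0.42 without WB1 replicate 1, all with an adjusted p above 0.05 by limma. TINAGL1 also overlaps LINC01226 on the same strand.

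Genes were then grouped by function. The lists with the lowest medians were the matrix proteases and the TGF-beta genes, and the list with the highest median was the S phase genes. For each list the number of members called and the median log2 fold change are given, to be read beside 2.33% called and a median of -0.05 over all tested genes. Without a minimum fold change, 13.6% of all tested genes had an adjusted p under 0.05 by limma, 725 higher and 1461 lower. The share at an unadjusted p under 0.05 was not computed over all genes and is at least as large. Counts of members at these limits are therefore a description only. The directions of the medians named below were the same with median-of-ratios scaling and with the corrections for GC content and transcript length unless stated.

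**Figure D3:**
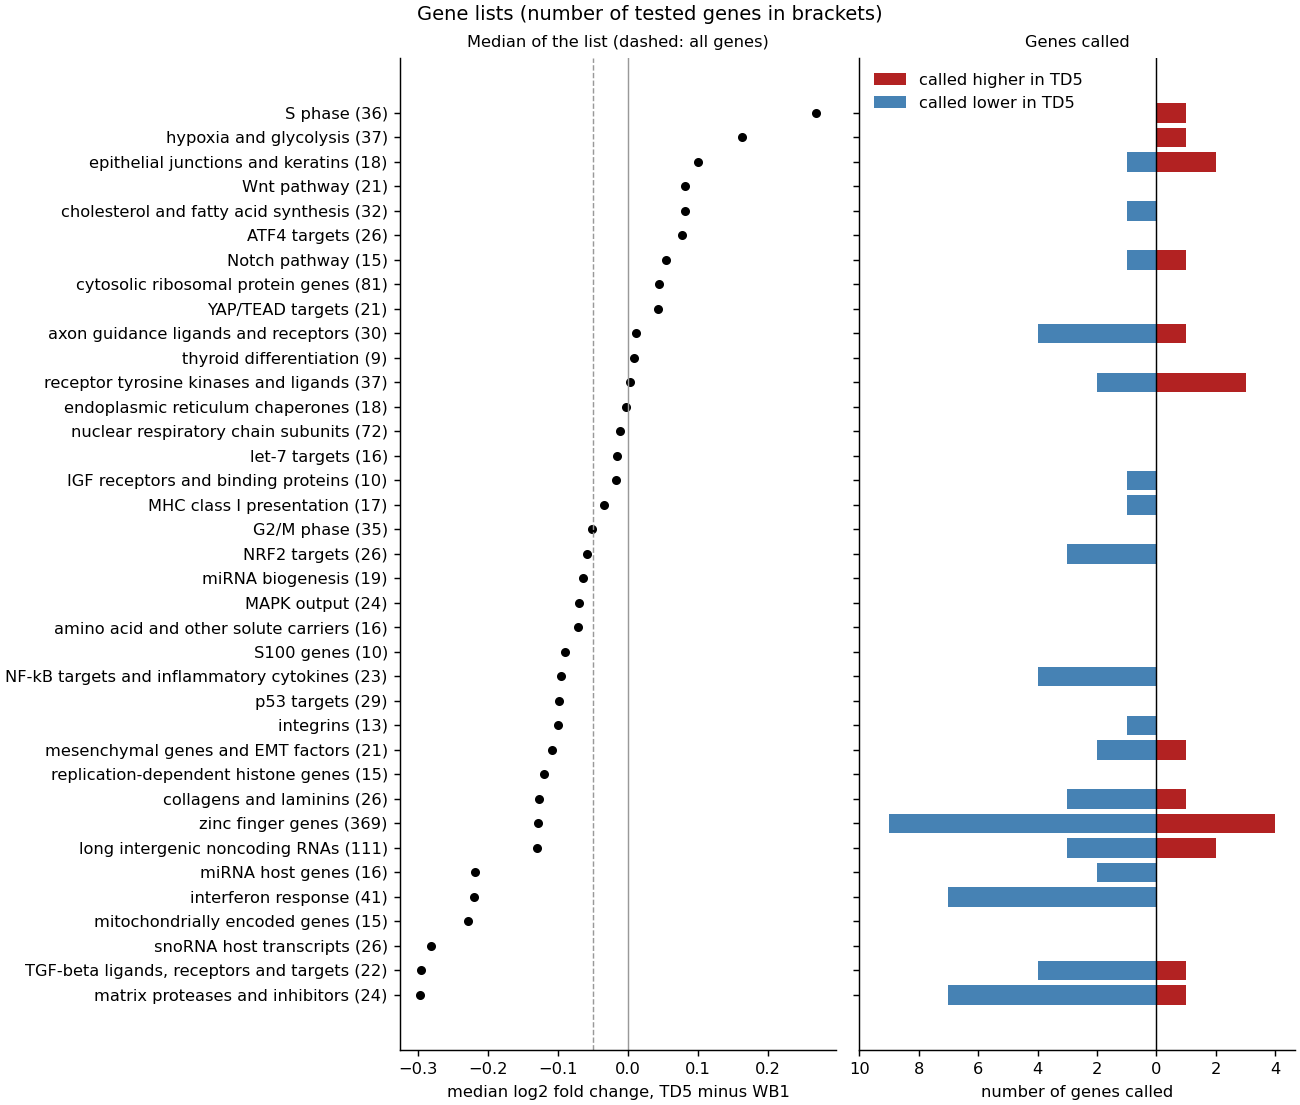
Median log2 fold change of TD5 against WB1 (left, x axis, dashed line at the median of all genes) and number of genes called higher (red bars) or lower (blue bars) in TD5 (right) for lists with at least 5 tested genes, whose number stands in brackets. The matrix protease list, with 7 of 24 genes lower and 1 higher, has the most calls for its size, the interferon list has 7 of 41 lower, and the S phase list has the highest median, 0.27, with 1 gene called.

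In the microRNA pathway, DICER1 was not alone in lying below WB1, but none of the 19 tested biogenesis genes was called by limma or by voom on recovered reads. At an adjusted p under 0.05, 4 were lower in TD5 and 0 higher, and these were also the 4 with an unadjusted p under 0.05. Beside DICER1 these were the terminal uridylyltransferase gene ZCCHC6, also called TUT7, with a log2 fold change of -0.56 (adjusted p = 0.0019 by limma), the Argonaute gene AGO4 with -0.44 and TNRC6A, a partner of Argonaute, with -0.27. AGO2, the slicing Argonaute, was at 2495, 2607 and 2861 in TD5 and at 2441, 2672 and 2451 in WB1, and DROSHA, which cuts primary transcripts ahead of DICER1, was at 1579, 1564 and 1500 against 1635, 1454 and 1583, with overlapping groups for both. The median of the list was -0.06, and it turned positive with the GC and length corrections (0.01 and 0.04). None of 16 tested let-7 targets was called by limma or voom, 6 had an unadjusted p under 0.05 (3 higher and 3 lower), and their median was -0.02, which turned positive under all 3 of these alternatives.

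The mature microRNAs themselves are not captured in libraries of polyadenylated RNA, but the long transcripts that carry them are. Of 16 tested host genes 2 were called, both lower in TD5, and the median was -0.22, or -0.14 without TD5 replicate 2. MIR222HG, which hosts miR-221 and miR-222, was at 78, 65 and 82 scaled reads in TD5 and at 162, 236 and 126 in WB1. The groups did not overlap, and the log2 fold change was -1.0 (SE 0.16, adjusted p = 0.000912 by limma). In TPC1 its mean was 43.3, below both clones. The mature sequences of the host are printed to show that both 3p arms share the seed GCUACAU, bases 2 to 8, given in capitals.

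hsa-miR-221-3p: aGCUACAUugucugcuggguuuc
hsa-miR-222-3p: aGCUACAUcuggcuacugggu

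These lie at chrX:45746180-45746202 and chrX:45747036-45747056 on the minus strand, inside MIR222HG (RefSeq, GRCh38.p14). The stem loop gene MIR221, counted apart on the same strand, was at 12, 9 and 13 in TD5 and at 20, 38 and 22 in WB1. MIR100HG, the host of a cluster of let-7a, miR-100 and miR-125b, was at 120, 104 and 143 in TD5 and at 153, 248 and 188 in WB1, a log2 fold change of -0.59 (adjusted p = 0.0429 by limma). That call was marginal and ended under 12 of the 18 alternatives, with -0.40 after the GC correction (adjusted p = 0.112 by limma). Of fits without a single library, the one without WB1 replicate 2 moved it the most (-0.42, adjusted p = 0.200), and the call also ended without TD5 replicate 1 (-0.58), TD5 replicate 2 (-0.49) or WB1 replicate 3, where the log2 fold change was -0.61 and the adjusted p = 0.0639. The 3 mature arms of the cluster with the best known functions have seeds of their own.

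hsa-let-7a-5p: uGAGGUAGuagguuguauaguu
hsa-miR-100-5p: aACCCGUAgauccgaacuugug
hsa-miR-125b-5p: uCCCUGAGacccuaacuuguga

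Genes of the interferon response, which restrict viral replication and are switched on by STAT and IRF factors, were lower in TD5 where they differed most. Of 41 tested genes 7 were called lower and 0 higher (17.1%, against 1.72% of all tested genes called lower), and 32 had a negative log2 fold change, with a median of -0.22. IFI44, a GTPase-like protein, was at 103, 118 and 179 scaled reads in TD5 and at 471, 343 and 271 in WB1, a log2 fold change of -1.31 (SE 0.17, adjusted p = 0.000118 by limma). Its neighbor IFI44L was at 37, 13 and 42 in TD5 and at 72, 96 and 77 in WB1, a log2 fold change of -1.05. OASL, a sensor-binding relative of the oligoadenylate synthetases, was at 90, 100 and 82 against 289, 213 and 148, a log2 fold change of -1.06. In each of these genes the 3 TD5 libraries lay below the 3 WB1 libraries. RSAD2, which encodes the antiviral enzyme viperin, was at 2, 5 and 6 in TD5, near the floor, and at 40, 27 and 21 in WB1. The remaining calls were SAMD9L (-0.69), a restriction factor, IFIT3 (-0.65), which binds viral RNA with its relatives, and USP18 (-0.65), the protease that removes ISG15. IFIT1 and IFIT2 lay just below 1.5-fold with log2 fold changes of -0.55 (adjusted p = 0.0107 by limma) and -0.57 (adjusted p = 0.000742). The list did not move as a whole. OAS3 was at 889, 1051 and 886 in TD5 and at 653, 591 and 682 in WB1, a log2 fold change of 0.54 (adjusted p = 0.00068 by limma), and IFITM3 changed by 0.24, while MX1 (-0.12) and IRF9 (-0.12) had adjusted p above 0.05. After the GC correction the 4 genes called lower were IFI44, IFI44L, OASL and RSAD2, and the median of the list was -0.10. SAMD9L, IFIT3 and USP18 were then no longer called. With a pseudocount of 4 there were 3 lower calls, with a filter at 5 per 1000000 there were 4 among 30 genes, and without TD5 replicate 2 the median was -0.13.

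Promoters of 34 tested genes of the list were found in RefSeq (GRCh38.p14), each from 250 bases before to 50 after the start. The letters GAAANNGAAA, the core of elements bound by ISGF3 and IRF factors, stood on either strand in 19 of these 34 and in 3.65% of 27305 promoters. Of the 7 genes called lower, 5 had a promoter in the table (not OASL and USP18), and the letters stood in those of IFI44L, IFI44 and IFIT3. They are printed with the match in capitals, TTTCNNTTTC being the same element on the other strand, as the sequences that these 3 members share.

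IFI44L: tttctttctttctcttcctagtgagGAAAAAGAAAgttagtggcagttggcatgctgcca
IFI44: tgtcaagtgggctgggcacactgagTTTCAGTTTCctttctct
IFIT3: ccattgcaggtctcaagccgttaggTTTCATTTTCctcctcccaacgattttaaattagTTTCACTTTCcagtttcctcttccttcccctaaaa

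They lie on the plus strand at chr1:78620259-78620318, chr1:78649746-78649788 and chr10:89327816-89327909. IFI44L has a further match outside the printed stretch. A match describes the letters only and is no measure of binding. Of 17 tested genes of MHC class I presentation only TAP2, a subunit of the peptide transporter, was called, at 1114, 1270 and 1177 in TD5 and at 2462, 2213 and 2276 in WB1. Its log2 fold change was -0.95 (SE 0.06, adjusted p = 3.91e-08 by limma). The gene AL669918.1 overlaps TAP2 on the same strand and had a log2 fold change of -0.92, so their reads cannot be assigned with certainty. TAP1, its partner, was at 571, 537 and 502 against 612, 576 and 619, with an adjusted p of 0.165 by limma.

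Chemokines that attract neutrophils through CXCR1 and CXCR2 formed the 4 calls among 23 tested NF-kB targets and inflammatory cytokines, all lower in TD5 (17.4%). The median of the list was -0.10, or -0.06 without TD5 replicate 3, and with a pseudocount of 4 there were 2 calls. CXCL8, or interleukin 8, was at 81, 141 and 101 scaled reads in TD5 and at 407, 321 and 213 in WB1, a log2 fold change of -1.37 (SE 0.21, adjusted p = 0.0005 by limma). CXCL1 was at 404, 527 and 507 against 968, 966 and 806, a log2 fold change of -0.91 (SE 0.11, adjusted p = 5.52e-05). CXCL2 was at 62, 72 and 104 against 169, 160 and 133, and CXCL3 at 12, 5 and 9 against 27, 21 and 23. In all 4 genes every TD5 library lay below every WB1 library. The log2 fold change of CXCL3 was -0.61 and fell short of the call without TD5 replicate 2 (-0.52) or WB1 replicate 1 (-0.56), and after the GC correction (-0.56). CXCL1, CXCL2 and CXCL3 are close paralogs, so reads may be shared between them. IL6 was at 100, 126 and 68 in TD5 and at 140, 106 and 98 in WB1, with overlapping groups, and TNFAIP2 was higher in TD5 at an adjusted p of 0.000854 by limma, with a log2 fold change of 0.40 that is below 1.5-fold.

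The 4 chemokine genes lie together on chromosome 4, and their promoters hold the same letters. GGAATTTCC, which fits the kB element of p65, was found on either strand in 0.472% of 27305 promoters of this length, in 7 of 18 tested genes of the list with a promoter and in all 4 that were called. The list was made of NF-kB targets, so these shares describe its members and are no test. A match is no measure of binding. The stretches are printed in the direction of each gene to show how alike those of CXCL1, CXCL2 and CXCL3 are around the match, given in capitals.

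CXCL8: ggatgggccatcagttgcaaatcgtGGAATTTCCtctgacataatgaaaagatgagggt
CXCL1: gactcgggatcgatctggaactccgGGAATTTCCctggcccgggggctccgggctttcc
CXCL2: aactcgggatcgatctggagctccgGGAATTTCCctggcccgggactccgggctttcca
CXCL3: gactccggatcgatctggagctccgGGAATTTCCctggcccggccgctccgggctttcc

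They lie at chr4:73740453-73740511 and chr4:73869290-73869348 on the plus strand and at chr4:74099239-74099297 and chr4:74038734-74038792 on the minus strand (RefSeq, GRCh38.p14). TLR4, the lipopolysaccharide receptor described above, was also lower in TD5, and a link between it and these chemokine genes was not tested.

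Proteases of the extracellular matrix and their inhibitors had the largest share called lower in TD5 among lists of at least 5 tested genes. By direction alone, 17 of 24 lay below 0, a smaller share than in the TGF-beta list (20 of 22). Of 24 tested proteases and inhibitors 7 were called lower and 1 higher (33.3%), and the median was -0.30. ADAM8, a membrane-anchored metalloproteinase, was at 93, 50 and 96 scaled reads in TD5 and at 174, 137 and 213 in WB1, a log2 fold change of -0.98 (SE 0.17, adjusted p = 0.00156 by limma). MMP3, or stromelysin 1, was at 8, 9 and 12 against 65, 30 and 24. ADAM12 was at 539, 397 and 533 against 827, 795 and 854, a log2 fold change of -0.74 (SE 0.12, adjusted p = 0.000912). None of these overlapped. ADAMTS5, the main aggrecanase, changed by -0.74, MMP16, a membrane-type metalloproteinase, by -0.64, and PLAT, the tissue plasminogen activator, by -0.64. ADAM19 was at 2547, 2027 and 2419 against 3528, 3376 and 4059, and its change of -0.65 was below 1.5-fold without TD5 replicate 2 (-0.55) or WB1 replicate 3 (-0.57). The exception in direction was ADAMTS15, a proteoglycanase, at 462, 409 and 373 in TD5 and at 172, 237 and 266 in WB1. PLAU, the urokinase gene, changed by -0.42 (adjusted p = 0.000635 by limma), and the inhibitors TIMP1 and TIMP2 had an adjusted p above 0.05. The median of the list after the GC correction was -0.26, with 5 lower calls. ADAM8, MMP3, ADAMTS5 and ADAM19 were among these, so ADAM12, MMP16 and PLAT did not all keep their calls. A filter at 5 per 1000000 left 20 genes with 4 lower calls and a median of -0.18, and a pseudocount of 4 also gave 4 lower calls.

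TGF-beta family genes shifted in the same way. Of 22 tested ligands, receptors and targets 20 had a negative log2 fold change, 4 were called lower and 1 higher, and the median was -0.30, both before and after the GC correction. The number called lower was 2 without TD5 replicate 1, with a pseudocount of 4 or with the length correction, and 3 with the GC correction. INHBA, the subunit of activin A, was at 59, 76 and 99 in TD5 and at 228, 229 and 181 in WB1, a log2 fold change of -1.26 (SE 0.17, adjusted p = 0.000168 by limma). LTBP1, which anchors latent TGF-beta in the matrix, was at 92, 90 and 96 against 219, 157 and 152, a log2 fold change of -0.78. The ligand BMP6 was at 29, 38 and 41 against 66, 60 and 71. All 3 were separated without overlap. SKIL, a transcriptional repressor and direct target of the pathway, changed by -0.69, and its call ended without TD5 replicate 1 (-0.58), TD5 replicate 2 (-0.57) or WB1 replicate 1 (-0.60, adjusted p = 0.0564 by limma), and after the GC correction (-0.50). NOG, a secreted antagonist of BMP ligands, was the gene called higher, at 51, 75 and 77 in TD5 and at 31, 39 and 36 in WB1, with a log2 fold change of 0.65 that was 0.57 without TD5 replicate 3. The targets PMEPA1 (-0.53) and ID2 (-0.48) were lower at an adjusted p under 0.05 but below 1.5-fold.

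Among matrix and adhesion genes, the integrin subunit ITGA2, which forms a collagen receptor with the beta 1 chain, was at 1399, 894 and 1487 in TD5 and at 2729, 2349 and 2684 in WB1. Its log2 fold change was -1.06 (SE 0.14, adjusted p = 0.000176 by limma), and it was the only call among 13 tested integrins. Among collagens, COL16A1 (0.66) was called higher, but not after the GC correction (0.57) or with a pseudocount of 4 (0.52). COL6A3 (-0.61) and COL7A1 (-0.60) were called lower near the threshold, and they were at -0.55 and -0.54 without WB1 replicate 1, at -0.55 without TD5 replicate 3 for COL6A3 and at -0.53 without TD5 replicate 1 for COL7A1. Of 21 mesenchymal genes 1 was called higher and 2 lower. SNAI2, a transcription factor of epithelial-mesenchymal transition, was at 864, 779 and 1082 in TD5 and at 1454, 1626 and 1603 in WB1, a log2 fold change of -0.78 (SE 0.10, adjusted p = 6.34e-05 by limma). TCF4, a partner of such factors, changed by -0.67, which was -0.57 without TD5 replicate 2 or without WB1 replicate 1 and -0.49 after the GC correction. THY1, a surface glycoprotein of mesenchymal cells, was called higher, at 41, 43 and 24 in TD5 and at 17, 19 and 13 in WB1, a log2 fold change of 0.61 (adjusted p = 0.0346 by limma). Leaving out any library but TD5 replicate 3 ended this call, with log2 fold changes of 0.52 to 0.66 and adjusted p of 0.0698 to 0.131. Fibronectin, FN1, was at 78412, 67989 and 75737 against 95364, 112651 and 103983, below 1.5-fold with a log2 fold change of -0.49. VIM, or vimentin, was at 35414, 35315 and 35576 against 34959, 33210 and 34776, a log2 fold change of 0.05 with an adjusted p of 0.628 by limma. Epithelial genes moved both ways. Of 18 tested, KRT81 and ELF3, an epithelial ETS factor at 161, 78 and 102 in TD5 and 21, 35 and 42 in WB1, were called higher, and the desmosomal cadherin DSC2 was called lower, at 8, 0 and 4 against 59, 55 and 57. The gene AL691482.3 overlaps ELF3 on the same strand.

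Guidance cues and receptors followed. Of 30 tested axon guidance genes 4 were called lower and 1 higher, with a median of 0.01 that was -0.05 after the GC correction. The secreted semaphorins SEMA3A and SEMA3C were both lower, SEMA3A at 97, 99 and 126 in TD5 and 252, 257 and 225 in WB1, a log2 fold change of -1.06 (SE 0.13, adjusted p = 7.91e-05 by limma). SEMA3C was at 1418, 1808 and 2037 against 3106, 3356 and 2516, a log2 fold change of -0.77, or -0.58 and just below 1.5-fold after the GC correction. PLXNA2, a semaphorin receptor, changed by -0.81 and the netrin receptor NEO1 by -0.67. SLIT3 was called higher with 0.80, but not without TD5 replicate 1 (0.69), WB1 replicate 1 (0.52) or WB1 replicate 2 (0.86), where its adjusted p was 0.0768, 0.111 and 0.0516 by limma. Of 37 receptor tyrosine kinases and ligands 3 were higher and 2 lower. EPHA5, an ephrin receptor, was at 23, 16 and 14 in TD5 and at 67, 48 and 42 in WB1, a log2 fold change of -0.93 (adjusted p = 0.000487 by limma), and the ephrin EFNB2 changed by -0.60. PDGFRB was described above, FGFR3 changed by 0.63 (0.54 after the GC correction and 0.52 without TD5 replicate 2, the latter with an adjusted p of 0.0576 by limma) and NTRK3 by 0.63 (0.47 without TD5 replicate 1 and 0.47 without WB1 replicate 1). In the Notch list the receptor NOTCH3 was called higher (0.66) and the coactivator MAML3 lower (-0.69) among 15 tested genes, and NOTCH3 was below 1.5-fold without WB1 replicate 1 (0.49) and after the GC correction (0.56).

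IGFBP7, a secreted binding protein of insulin-like growth factors, was at 475, 463 and 524 in TD5 and at 1129, 1075 and 1147 in WB1, a log2 fold change of -1.17 (SE 0.07, adjusted p = 1.65e-08 by limma). TPC1, with a mean of 1206, and D11, with a mean of 998, were near WB1, and the antisense gene IGFBP7-AS1 was also lower in TD5 (-1.43). It was the only call of 10 tested genes for IGF receptors and binding proteins. The metallothionein MT1E, which binds zinc and copper, was called higher, at 378, 349 and 392 in TD5 and 155, 185 and 190 in WB1, a log2 fold change of 1.00 (SE 0.12, adjusted p = 4.53e-05 by limma). Of 26 tested targets of NRF2, the regulator of oxidant defense, 3 were called lower and 0 higher. CBR1, a carbonyl reductase, was at 167, 175 and 216 in TD5 and at 535, 546 and 577 in WB1, a log2 fold change of -1.48 (SE 0.11, adjusted p = 1.07e-07 by limma), with means of 561 in TPC1 and 557 in D11. The other 2 were HMOX1 and AKR1C3 (-0.61), an aldo-keto reductase that was at -0.57 without TD5 replicate 2, -0.48 without WB1 replicate 2 and -0.49 after the GC correction. Core NRF2 targets were not all lower, as TKT (0.21) of the pentose phosphate pathway was higher at an adjusted p under 0.05 and below 1.5-fold. SETD4 overlaps CBR1 on the opposite strand and had a log2 fold change of -0.07.

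Genes of DNA replication showed a small shift in the other direction. Of 36 tested S phase genes 34 had a positive log2 fold change and 20 were higher at an adjusted p under 0.05, although only CDT1 passed 1.5-fold, and the median was 0.27. CDT1, which loads the replicative helicase, was at 523, 648 and 655 scaled reads in TD5 and at 351, 319 and 430 in WB1, a log2 fold change of 0.70 (SE 0.11, adjusted p = 0.000878 by limma). CDC6, its partner in loading, was at 1546, 1401 and 1238 against 1035, 937 and 994, a log2 fold change of 0.48. E2F1, a transcription factor of S phase entry, was at 586, 638 and 491 against 409, 392 and 385, a log2 fold change of 0.50, and the helicase subunit MCM2 changed by 0.39. These genes did not overlap between the clones. CCNE1, cyclin E1, was at 207, 203 and 195 in TD5 and at 147, 145 and 146 in WB1, a log2 fold change of 0.42 (adjusted p = 0.01 by limma). Of 35 tested genes of G2 and M phase none was called by limma or voom and none had an adjusted p under 0.05, while 4 had an unadjusted p under 0.05, with a median of -0.05 that turned positive with median-of-ratios scaling (0.004) and with the corrections for GC content (0.11) and length (0.01). MKI67 was at 9901, 10298 and 10553 in TD5 and at 13306, 10824 and 10890 in WB1, with an adjusted p of 0.157. The S phase median after the GC correction was 0.33.

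Some glycolysis genes were higher in TD5, by less. Of 37 tested hypoxia and glycolysis genes 11 were higher at an adjusted p under 0.05, 0 were lower, and the median was 0.16. The median rested on single libraries, as it was 0.07 without TD5 replicate 3, with 21 of 37 genes above 0, 0.10 without WB1 replicate 1 and 0.11 without TD5 replicate 1. The share called was 2.70%, near that of all tested genes. The monocarboxylate exporter SLC16A3 was at 4555, 4550 and 5383 in TD5 and at 2808, 3113 and 4089 in WB1, a log2 fold change of 0.54, and the glucose transporter SLC2A1 changed by 0.47, PGK1 by 0.37 and LDHA by 0.31. BNIP3, a mitophagy receptor, was the only call at 0.59 (adjusted p = 0.0225 by limma), with TD5 at 3591, 2808 and 4430 and WB1 at 1786, 2442 and 2988. Its groups overlapped, and its log2 fold change was 0.39 without WB1 replicate 1 and 0.43 without TD5 replicate 3, and with an adjusted p above 0.05 it was 0.58 without TD5 replicate 1 and 0.61 without WB1 replicate 2. Of 32 genes of cholesterol and fatty acid synthesis, the sterol isomerase gene EBP was called lower, at 419, 426 and 431 in TD5 and 710, 631 and 659 in WB1, a log2 fold change of -0.62 (adjusted p = 4.85e-05 by limma) that was -0.58 without WB1 replicate 1. SREBF1, the regulator of lipogenic genes, was higher by 0.55 and FASN by 0.45, both below 1.5-fold.

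Transcripts encoded in mitochondria were lower in TD5 by a small margin. All 15 tested ribosomal and messenger RNAs had a negative log2 fold change, none was called by limma or voom, 6 had an adjusted and 13 an unadjusted p under 0.05, and the median was -0.23, or -0.12 after the GC correction. MT-ND5, a subunit of complex I, was at 22287, 18859 and 21743 in TD5 and at 31335, 31412 and 25915 in WB1, a log2 fold change of -0.49. The 72 tested nuclear genes for subunits of the respiratory chain had a median of -0.01, which turned positive under all 3 alternatives, and none was called by either tool, with 18 at an unadjusted p under 0.05. Host transcripts of small nucleolar RNAs, which are degraded in the cytoplasm once their introns are removed, had a median of -0.28, with 24 of 26 below 0, none called by either tool, 15 at an unadjusted p under 0.05 and a median of -0.18 after the GC correction. GAS5 was at 3371, 3112 and 2994 in TD5 and at 4127, 4297 and 3808 in WB1, a log2 fold change of -0.37 (adjusted p = 0.000742 by limma). The 81 tested genes of cytosolic ribosomal proteins had a median of 0.04, 13 at an unadjusted p under 0.05 and no call by either tool.

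Other groups held few or no calls. By limma none was called among 29 p53 targets, 24 genes of MAPK output, 26 ATF4 targets, 18 chaperones of the endoplasmic reticulum, 21 YAP and TEAD targets, 21 genes of the Wnt pathway, 10 S100 genes, 16 amino acid and other solute carriers, 15 replication-dependent histone genes and 9 genes of thyroid differentiation. Between 0 (histone genes) and 12 (Wnt pathway) of these had an unadjusted p under 0.05, and voom on recovered reads called 1 gene of MAPK output lower and 1 solute carrier higher. Within these, DUSP6 (-0.40), a phosphatase induced by ERK, was lower at an adjusted p under 0.05, and the p53 target TP53I11 (0.46) was higher. Of 369 tested zinc finger genes 4 were called higher and 9 lower (3.52%). ZNF440 was at 70, 61 and 80 in TD5 and at 13, 20 and 19 in WB1, a log2 fold change of 1.27 (adjusted p = 4.4e-05 by limma), and ZNF804A was at 38, 22 and 51 against 101, 98 and 85. A pseudocount of 4 gave 1 higher and 1 lower, and leaving out TD5 replicate 3 gave 4 higher and 15 lower. The median of the zinc finger genes was -0.13, or -0.03 after the GC correction. Of 111 tested long intergenic noncoding RNAs 2 were higher and 3 lower, with LINC00601 at 12, 31 and 24 in TD5 and at 49, 56 and 52 in WB1.

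Of 9 genes that had been chosen in the study for RT-qPCR because they changed in all 3 clones against TPC1, the 2 clones differed in 2. PNMA2, a paraneoplastic antigen, was at 24, 15 and 19 in TD5 and at 3, 4 and 2 in WB1, near the floor, and its mean in TPC1 was 72.3. Its log2 fold change was 0.77 (SE 0.13, adjusted p = 0.00128 by limma), and it overlaps DPYSL2 and BNIP3L, both far more abundant, on the opposite strand. EPHA5 was lower in TD5, as given above, with a mean of 92.3 in TPC1. ICAM1, SMIM10, CASP10, ZNF28 and ZNF468 were at 8 scaled reads or fewer in each of the 6 libraries, where a difference between the clones was not detectable at this depth. LINC01234 was at 16, 10 and 14 in TD5 and at 25, 21 and 33 in WB1, with a log2 fold change of -0.47 and an adjusted p of 0.0513 by limma. PPP1R3C, at 2 to 5 scaled reads, was below the limit for testing.

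TPC1 shows on which side the parental line lay. Its mean was nearer to TD5 than to WB1 for 65 of the 98 genes called higher in TD5 and for 168 of the 275 called lower. For D11 the mean was nearer to WB1 for 69 of the 98 and for 170 of the 275. These counts share the TD5 and WB1 libraries with the calls and are a description. Single genes followed each pattern. A gene called lower in TD5 did not always lie below TPC1. ADAM8 had means of 65.7 in TPC1, 79.7 in TD5 and 175 in WB1, and ITGA2 had 917, 1260 and 2587 in the same lines. VAMP8, TLR4, DTX3, CBR1, IGFBP7 and TAP2 had means in TPC1 and D11 nearer to that of WB1 than to that of TD5, whereas KRT81, CD33 and PDGFRB were lowest in WB1 of the 4 lines. FXYD2 was at a mean of 52.3 in TPC1, 35.3 in D11 and 47.3 in WB1, with TD5 apart at 214. RSAD2 had means of 3.33 in TPC1, 7.67 in D11 and 4.33 in TD5, with WB1 apart at 29.3, and MMP3 had means of 8.0, 11.3 and 9.67 in the same lines, with WB1 apart at 39.7.

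By position, calls were spread over the genome. Chromosome medians ran from -0.13 on chromosome 4 to 0.08 on chromosome 19, with -0.26 for the mitochondrial genome, and the median GC content of the tested genes was 42.1% on chromosome 4 and 58.4% on chromosome 19. Chromosome 4 had the largest share of calls of the nuclear chromosomes, with 28 genes lower and 4 higher of 536 tested (5.97%), among them the 4 chemokine genes, IGFBP7 and EVC. On chromosome 14, which carries DICER1, 8 genes were called lower and 0 higher of 523 tested (1.53%), and the median was -0.06.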

How the data were processed

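The series holds 3 RNA-seq libraries for each of TPC1, D11, WB1 and TD5. The authors prepared stranded, paired-end libraries of polyadenylated RNA, mapped reads to GRCh38 with STAR 2.5.3a, counted genes of Ensembl release 90 with HTSeq 0.9.1 and normalized them to 20000000 aligned reads. The strand setting of the counting is not given in the sources used here, so reads of overlapping genes are uncertain. The deposited values are whole numbers summing to about 20000000 per library (20011867 to 20014191 in TD5 and WB1), and were treated as a score, not as counts. The size of a read was recovered from missing whole numbers, with at least 99.8% of low values of these libraries on the steps, in 11 of 12 libraries.

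Values per 1000000 were analysed as log2(value + 1) by limma 3.58.1 (R 4.3.3) using a mean-variance trend and 1 mean per line over all 12 libraries, and p-values were adjusted by Benjamini-Hochberg over 16027 genes. The study's methods name a count method, which scaled values do not allow. Fold changes on this scale understate the change of low genes. Nothing in the labels says that libraries of a clone came from separate cultures, so p-values measure only the spread between these libraries.

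The comparison, the gene lists and the rule for named genes were chosen with earlier results of these data known. The rule took DICER1 and the 10 highest and 10 lowest calls with at least 5 per 1000000 in the higher clone and no overlap. It also took the abundant calls without overlap that changed most, the genes at the floor in a clone and up to 4 calls per list. The RT-qPCR genes and genes called in opposite directions against TPC1 completed it. Loci with a clone-based name, such as AC names, were left out, except from the calls per list. Any other gene was picked with its values in view. Some genes are not reported here. The procedure was tested on simulated data. Alternatives covered the filter, pseudocount, thresholds, scaling, corrections for GC content and transcript length, libraries in the fit, a replicate block, voom and thinning on recovered reads without TPC1 replicate 1, and leaving out each library. Sequences and transcripts came from RefSeq (GRCh38.p14) and GENCODE 44 (GRCh38). No column of the table was left unused.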

Additional observations from a re-analysis of the deposited data

Results flagged for a closer look

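In 12 of the genes that met the rule for named genes, the 2 clones moved in opposite directions from TPC1, with each of the 3 differences called. The test of the difference is the log2 fold change of TD5 against WB1 in limma over the 12 libraries. Among genes without overlap between the clones and without a clone-based name, 14 were called in this way. Both changes share the TPC1 libraries, and the values of the clones are therefore given side by side.

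TD5 lay below TPC1 and WB1 above it for 8 genes. PRAME had a log2 fold change of -1.39 in TD5 and 3.69 in WB1, a difference of -5.08. For LUM these were -2.14 and 1.01, a difference of -3.15, and for ARHGEF6 they were -1.23 and 1.60, a difference of -2.83. NOV changed by -0.95 and 1.19, a difference of -2.14. ASS1, the urea cycle enzyme that makes argininosuccinate from citrulline, was at 7, 10 and 8 scaled reads in TD5 and 79, 82 and 91 in WB1. Its mean in TPC1 was 37.0, and the difference between the clones was -1.88. ADGRL2 (-1.68), PCDH9 (-1.59) and CYS1 (-1.41), which encodes the ciliary protein cystin 1, followed the same order, with TPC1 between the clones.

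TD5 lay above TPC1 and WB1 below it for 4 genes. STK26 changed by 1.55 in TD5 and -1.12 in WB1, a difference of 2.67, and SFMBT2 by 1.07 and -1.60, also a difference of 2.67. EFHB changed by 0.70 and -1.09, a difference of 1.79. MTUS1, a microtubule-associated tumor suppressor candidate, was at 57, 29 and 43 in TD5 and at 7, 3 and 3 in WB1, with a mean of 21.0 in TPC1 and a difference of 1.35.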

How the results depend on the processing

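The main counts were 98 genes higher and 275 lower in TD5. A filter at 5 per 1000000 gave 62 and 169, a pseudocount of 4 gave 41 and 99, a 2-fold minimum 21 and 55, no minimum fold change 725 and 1461, and a pseudocount of 0.1 gave 438 lower. Leaving out each library in turn gave 68 to 127 higher and 223 to 429 lower, with 429 without TD5 replicate 3. The other alternatives, including the fit of only TD5 and WB1 libraries, voom and thinning on recovered reads, stayed within 1.5 times both counts. DICER1 stayed negative throughout, from -0.45 to -0.16 (adjusted p from 0.00302 to 0.164 by limma), and leaving out single libraries gave -0.45 to -0.27. Its adjusted p passed 0.05 with only TD5 and WB1 libraries in the fit (-0.34, adjusted p = 0.0660), no filter on low values (-0.34, 0.0674), the GC correction (-0.17, 0.0903) and the length correction (-0.16, 0.164). Deviations from the line means in libraries of the 2 clones with the same replicate number had r from -0.27 to -0.07. With 3 libraries per line, this cannot show whether the numbers pair the libraries. A fit with the replicate number as a block gave 96 higher and 273 lower, and -0.34 for DICER1 (adjusted p = 0.0529 by limma). Other thresholds were applied to the total counts only, so single genes were followed at 1.5-fold and 0.05. Of 85 called genes that the rule named, 40 kept their call under all 18 alternatives of this kind. A further 5 kept it where tested but were not tested with the filter at 5 per 1000000. The other 40 lost it under at least 1, of them 31 with a pseudocount of 4, 13 with the GC correction and 10 with the length correction, and none reversed. The causes were not tested. Depth limits genes near the floor of 3.46 to 4.72 scaled reads, and 3 libraries of 1 clone each limit every comparison to these clones.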

Other observations

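Some genes outside the lists also separated the clones, and they were chosen after their values were seen. PAPPA, a secreted protease of IGF binding proteins, was at 156, 109 and 192 scaled reads in TD5 and at 414, 420 and 483 in WB1, a log2 fold change of -1.44, and the groups did not overlap. GALC, a lysosomal galactosidase, was at 0 in all 3 TD5 libraries and at 46, 38 and 48 in WB1, at least 10.4-fold lower against the mean floor of 3 reads. GFRA1, a receptor for GDNF that signals with RET, was at 640, 842 and 617 in TD5 and at 327, 299 and 312 in WB1, a log2 fold change of 1.10 (SE 0.11, adjusted p = 3.9e-06 by limma). The inflammatory caspase CASP1 and the chemokine CX3CL1 were both low and higher in TD5, at 27, 29 and 24 against 4, 9 and 4 for CASP1 and at 40, 26 and 24 against 4, 8 and 5 for CX3CL1. Of 22 tested transfer RNAs of the mitochondrial genome 5 were called lower, with log2 fold changes from -0.80 to -0.70, and the median was -0.45. Libraries of polyadenylated RNA sample transfer RNAs only in part.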
